A study of Mus musculus with 20 samples.

Results

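The hypothalamic neuropeptide precursors were 34 genes, each encoding a prepropeptide that is cut into a signalling peptide. They were taken by gene symbol from the deposited count table, which lists 25239 genes, and the list leaves out Gnrh1, Kiss1, Tac2, Avp and Oxt. All 34 symbols had a row and at least 1 read, and 30 of the 34 passed the low-count filter over the 20 mice. Positions below are on GRCm38.

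A neuropeptide precursor enters the secretory pathway, is cleaved by prohormone convertases, is trimmed by carboxypeptidase E and, for many peptides, is amidated before release from dense-core granules. The peptides act mainly on G protein-coupled receptors and modulate feeding, stress, sleep, reproduction and neuron excitability. The same precursors are also made outside the hypothalamus: Penk, Tac1 and Pdyn mark medium spiny neurons of the striatum, and Cck, Vip, Sst, Npy and Cort mark cortical neurons.

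RNA of the preoptic area (POA) was profiled by bulk RNA sequencing in 20 male mice, 5 in each of 4 groups. Control SS and control OS mice were bred from heterozygous dnFGFR siblings, whereas dnFGFR SS and dnFGFR OS mice came from homozygous dnFGFR breeding pairs. The dnFGFR transgene is a truncated fibroblast growth factor receptor 1 without its kinase domain, driven in GnRH neurons by a rat GnRH promoter. Males were paired at postnatal day (PND) 20 with a male (same sex, SS) or a female (opposite sex, OS), and tissue was collected at PND 320, after 300 days of cohabitation. OS males bred and raised litters, so female company, mating and pups cannot be told apart.

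Each library held between 32353578 and 39871353 counted reads. Of these, between 0.0937% and 0.169% fell on the 34 precursors. The tissue was a block whose side cuts lay lateral to the internal capsule. Markers of the preoptic area and anterior hypothalamus (12 genes, led by Lhx6) had a summed level of 113 to 156 CPM (reads of a gene relative to all counted reads of the library, scaled to a common total). Of these 12 genes, 10 or 11 passed the low-count filter in each comparison. Their mean log2 CPM, in which low genes weigh as much as high ones, ran from 0.94 to 2.23. Markers of striatal medium spiny neurons (12 genes, led by Adcy5) summed to 3270 to 6130 CPM and markers of cortical pyramidal neurons (6 genes, led by Nrgn) to 752 to 1803 CPM, so the block held RNA with markers of these regions too. Markers of the choroid plexus (8 genes, led by Ttr) summed to 222 to 3311 CPM. Markers of the anterior pituitary (6 genes, led by Tshb) summed to 6.19 CPM in control OS 2, where Gh stood at 3.86 CPM and Prl at 0.653, and to between 0.581 and 2.20 CPM in the other mice. Pomc, a member that the pituitary also makes, was 1.70 CPM in control OS 2, the highest value of its group. The most Pomc reads of any mouse, 61 against 60 in control OS 2, were in control SS 1. There the anterior pituitary markers summed to 1.02 CPM. A part of pituitary RNA in the Pomc values was not tested. No marker of any list was at 0 in all mice. In bulk tissue, fewer cells of a type and less RNA per cell cannot be told apart.

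The 3 libraries dnFGFR OS 2, 3 and 5 of the dnFGFR OS group stood apart, and the counts of members called by edgeR in comparisons or slopes that include them are given with and without them. Mouse dnFGFR OS 2 had the highest cortical marker level (6.35, the mean log2 CPM of the list) and the lowest preoptic marker level (0.94). Mouse dnFGFR OS 3 had the lowest striatal marker level (7.53). Mouse dnFGFR OS 5 had reads on 18416 genes, against 19101 to 19659 in the other mice.

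The precursors spanned a wide range of levels. In RPKM, CPM divided by the exon length in kilobases, the mean over the 20 mice was at least 100 for 2 genes, 10 to 100 for 6, 1 to 10 for 11 and under 1 for 15. Penk (chr4:4133536-4138815), the precursor of the enkephalins, was highest at 410.9 RPKM ± 62.2 (SD, n = 20), and Sst, the precursor of the inhibitory peptide somatostatin, followed at 193 ± 49.0. Next came Npy (neuropeptide Y, a feeding peptide) at 56.4 RPKM, Tac1 (substance P and neurokinin A) at 49.0, Cck (cholecystokinin) at 41.1 and Pdyn (dynorphins) at 38.2. Nts (neurotensin) at 19.9 RPKM and Cartpt (the satiety peptide CART) at 13.7 closed the upper classes. For Sst and Npy alone among neighbours in this order, the ranges over the 20 mice did not overlap. The middle class ran from Apln (apelin) at 8.35 RPKM, Gal (galanin) at 8.06 and Trh (thyrotropin-releasing hormone) at 7.14, through Pnoc (nociceptin), Crh (corticotropin-releasing hormone), Nmb (neuromedin B), Vip (vasoactive intestinal peptide), Adcyap1 (the peptide PACAP), Cort (cortistatin) and Ghrl (ghrelin), to Grp (gastrin-releasing peptide) at 1.56.

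The lowest class held precursors of very few reads. Npff (neuropeptide FF), Agrp, Pomc, Prok2 (prokineticin 2), Pmch, Ghrh (growth hormone-releasing hormone), Calca (CGRP), Nms, Ucn3 (urocortin 3), Nmu (neuromedin U) and Qrfp had means between 0.978 and 0.101 RPKM. Pomc and Agrp, made by neurons of the arcuate nucleus, stood at 0.782 and 0.826 RPKM, and Pmch, made in the lateral hypothalamus, at 0.704. The 4 members below the filter were Rln3 (relaxin 3) with 78 reads over the 20 mice, Calcb (the second CGRP gene) with 83, Hcrt (orexin) with 33 and Npvf (RFamide-related peptides) with 9. Hcrt had no read in 10 mice and Npvf in 15, and no difference could be detected for them at this depth. In every mouse the share of member reads on Penk was 43.9% to 56.2%, and the 5 precursors Penk, Tac1, Sst, Pdyn and Cck took 81.4% to 89.3%. Qrfp overlaps Abl1, Pmch overlaps Parpbp, and Crh, Nmu, Agrp, Cck, Adcyap1 and Grp overlap at least 1 non-coding gene. Reads from these partners cannot be told apart where strand was not used in counting.

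The level of Penk was 443 ± 68.3 RPKM in control SS, 412 ± 43.4 in control OS, 424 ± 48.9 in dnFGFR SS and 364 ± 71.4 in dnFGFR OS mice (SD, n = 5 each). The ranges of the 4 groups overlapped. The plot of levels in each mouse shows this for 8 precursors that the results below turn on.

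**Figure D1:**
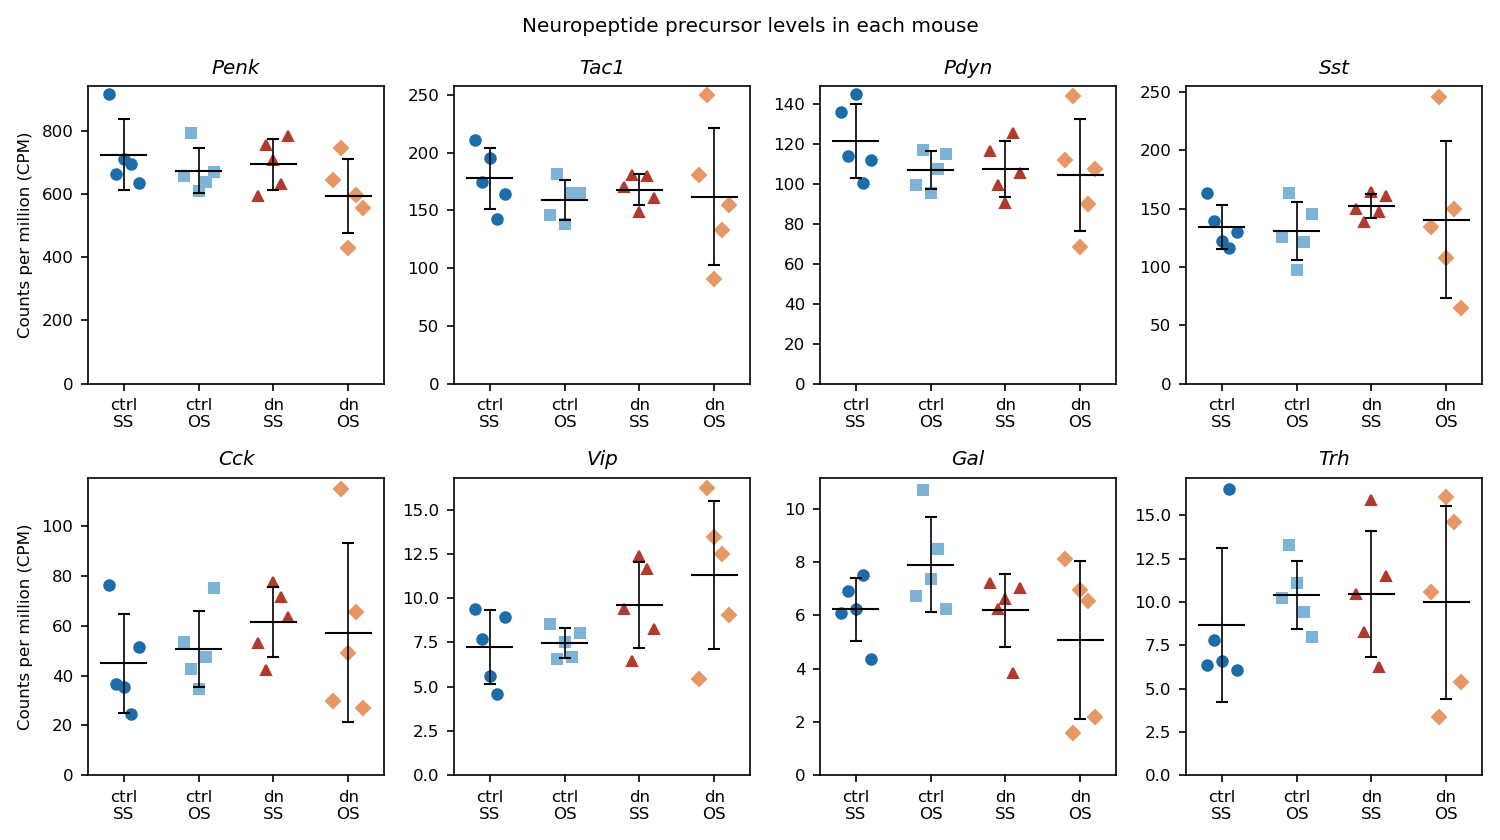
CPM of 8 precursors (vertical axis, from 0) in each of the 20 mice, with the group mean (bar) and SD (whisker); ctrl is control and dn is dnFGFR. In every panel the 4 groups overlap, and single dnFGFR OS mice lie far from the rest, such as the mouse at 1.58 CPM for Gal and the mouse at 115 CPM for Cck.

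Upstream sequences are shown for Gal, Trh, Vip and Cck, since Gal moved with Trh and Vip with Cck from mouse to mouse (below). Each run is the 150 bases before the outermost annotated start, from RefSeq (GRCm38.p6). Of the 34 members, 27 had a promoter in the RefSeq table. Capitals mark TGACG or its reverse complement CGTCA, a 5-base part of TGACGTCA, the cAMP response element bound by CREB.
Gal, minus strand, chr19:3414545-3414694: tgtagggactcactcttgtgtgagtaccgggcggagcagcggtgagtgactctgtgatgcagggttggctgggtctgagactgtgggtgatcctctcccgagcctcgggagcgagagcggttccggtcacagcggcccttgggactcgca
Trh, minus strand, chr6:92244651-92244800: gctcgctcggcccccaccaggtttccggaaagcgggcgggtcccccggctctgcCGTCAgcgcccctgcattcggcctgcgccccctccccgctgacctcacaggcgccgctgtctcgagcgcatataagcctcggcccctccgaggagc
Vip, plus strand, chr10:5639043-5639192: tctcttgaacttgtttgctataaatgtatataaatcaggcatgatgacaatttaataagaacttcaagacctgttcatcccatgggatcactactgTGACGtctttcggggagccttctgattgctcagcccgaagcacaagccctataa
Cck, minus strand, chr9:121495695-121495844: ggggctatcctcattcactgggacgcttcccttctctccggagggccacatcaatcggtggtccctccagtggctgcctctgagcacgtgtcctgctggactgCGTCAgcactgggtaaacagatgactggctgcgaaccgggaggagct
Trh, Vip and Cck held 1 such run each, which began 96, 54 and 47 bases upstream of the start, and Gal held none in this window. In the table's windows of 300 bases (250 before and 50 after the start, both strands searched), TGACG lay in 20.8% of all 32851 promoters and in 15 of the 33 promoters of members. In these longer windows Gal, too, had a match, as did Trh, Vip and Cck. The full TGACGTCA, which contains TGACG, lay in 1.79% of all promoters and in those of Cartpt and Sst among members. A match is a run of letters and not a measured site.

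Precursors varied more between mice of one group than most genes did. Spread was measured as the biological coefficient of variation (BCV), edgeR's estimate of replicate variation beyond counting noise, and set against the trend for genes of the same level. The median BCV was 26.4% over the 30 members tested and 12.4% over all 17445 genes. The BCV lay above the trend for 22 of the 30 members (73.3%) and for 32.9% of all genes. Cck stood highest, at 3.34 times the trend, followed by Trh at 2.36, Sst at 2.31, Cartpt at 1.91, Npy at 1.87, Gal at 1.86 and Tac1 at 1.84. Agrp, at 0.54 times the trend, and Pomc, at 0.98, lay below it. The BCV lay above the trend for 21 of 30 members and 31.7% of all genes without dnFGFR OS 2, 3 and 5. Cck was then at 3.32 times the trend, Trh at 2.06, Sst at 1.47 and Gal at 1.21. The highest Sst level, 246 CPM, was that of dnFGFR OS 2 and the lowest, 64.6 CPM, that of dnFGFR OS 5. Group accounted for a median of 17.7% of the variance in log2 CPM among the members and 17.0% among all genes, with the highest share among members for Grp, at 40.5%.

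**Figure D2:**
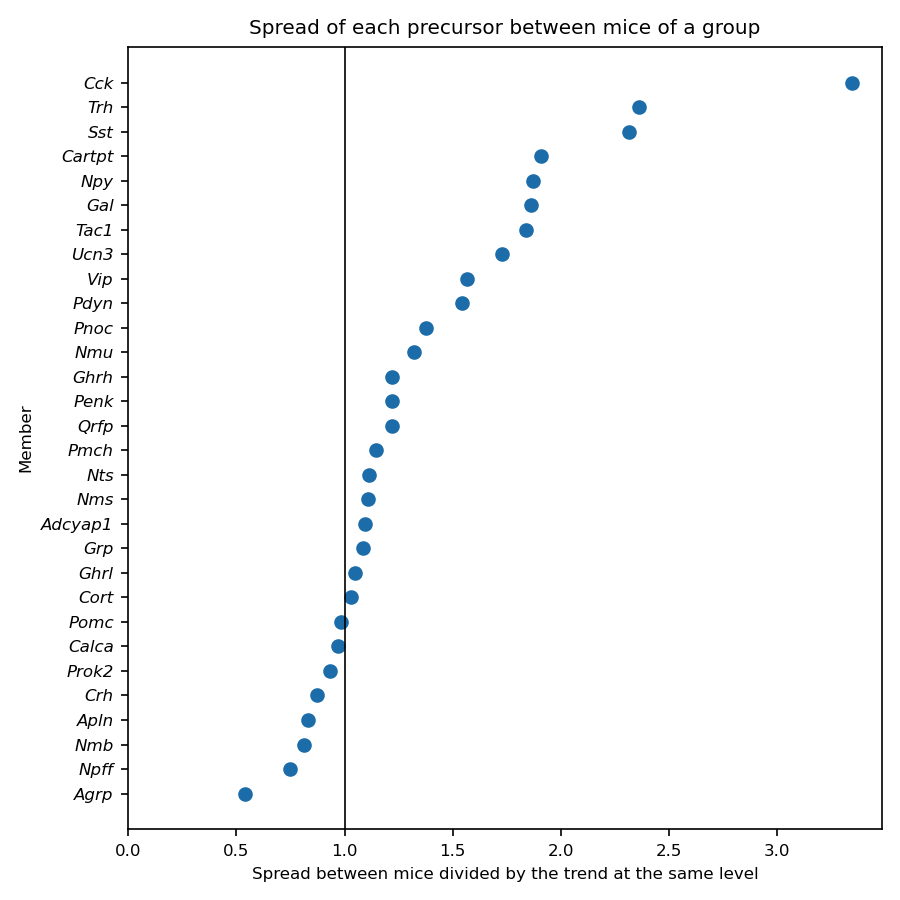
Spread of each of the 30 members between mice of a group (horizontal axis, BCV divided by the trend at the same level; line at 1). Points right of the line varied more than the trend, and the members ran from Cck at 3.34 to Agrp, left of the line, at 0.54.

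The first comparison asked whether housing with a female went with other precursor levels in control mice, and no precursor passed the test. Of the 28 members tested, 0 passed an adjusted p of 0.1 in edgeR's quasi-likelihood test, against 0.124% of all 17004 genes, and 0 of 28 had groups that did not overlap (1.61% of all genes). Members at an unadjusted p under 0.05 numbered 2 in edgeR (7.14%, against 7.2% of all genes), 4 in DESeq2 (11.8% against 6.28%) and 4 in limma voom (14.3% against 9.95%). DESeq2 and voom called 0 members as well, against 0.923% and 0.388% of all genes. Of the 28 members, 14 had a higher mean in OS mice. The median log2 fold change was 0.00 for members and 0.00 for all genes. Regardless of sign, it was 0.18 for members and 0.07 for all genes. Of the 28 intervals, 24 (85.7%) lay within a 2-fold change in either direction, against 91.9% of all genes.
Adcyap1 (chr17:93198245-93206541), whose peptide PACAP stimulates cAMP signalling, came closest. It stood at 7.56, 7.02, 7.09, 7.09 and 6.54 CPM in control SS mice and at 8.73, 10.2, 9.19, 9.38 and 6.83 CPM in control OS mice. The OS values were higher in 4 of 5 mice than any SS value, while OS mouse 5 lay within the SS range. The log2 fold change was 0.33 (SE 0.11, adjusted p = 0.467). Among the 7 control mice killed on the 2 dates with SS and OS mice alike, fitted with the date as a term, edgeR called 0 members. Adcyap1 differed by 0.31. In that fit 4 members had an unadjusted p under 0.05. They are not set against the share of all genes, so nothing is read from this count.
Gal, a peptide of preoptic sleep and parental circuits, differed by 0.34 (SE 0.16, adjusted p = 0.701). Cartpt was 16.4 to 21.6 CPM in control SS mice and 11.1 to 19.2 CPM in control OS mice, a difference of -0.27 on the log2 scale (SE 0.12, adjusted p = 0.677). Pdyn differed by -0.19 (SE 0.09, adjusted p = 0.707). None of these differences passed the test, and each shrank by over 1.5 times without 1 mouse: Gal to 0.21 without control OS 2, Cartpt to -0.16 without control OS 1 and Pdyn to -0.11 without control SS 3. Striatal markers were lower in 11 of 12 genes and choroid plexus markers higher in 8 of 8 in control OS mice, with 0 called by edgeR (4 and 4 at an unadjusted p under 0.05) and 1 striatal gene, Rgs9, called by DESeq2. With the striatal marker level as a covariate 0 members were called, and the differences were 0.42 for Adcyap1 (SE 0.11, adjusted p = 0.337), 0.51 for Gal, -0.27 for Cartpt and -0.14 for Pdyn. The part of the choroid plexus list in these values was not tested.

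In dnFGFR mice, too, no precursor passed the test for housing. edgeR called 0 of 29 members and 0 of 16944 genes (0%), with 0 members and 1138 genes (6.72%) at an unadjusted p under 0.05. DESeq2 called 0 members and 5 genes (0.0231%) and voom called 0 and 0. In these fits 1 and 3 members had an unadjusted p under 0.05 (2.94% and 10.3%, against 6.2% and 13.4% of all genes). With dnFGFR OS 2, 3 and 5 left out, so that 2 OS mice remained, edgeR called 0 of 30 members and 0 genes. In that fit 2 of 30 members and 969 of 17429 genes had an unadjusted p under 0.05. With any 1 mouse left out edgeR called 0 genes. The groups did not overlap for 0 of 29 members and for 1.42% of all genes. The median log2 fold change of the members was -0.05. Regardless of sign, it was 0.17 for members and 0.11 for all genes. Of the 29 intervals, 20 lay within a 2-fold change, against 90.0% of all genes. Among the 6 dnFGFR mice killed on the 2 dates with SS and OS mice alike, 0 members were called, with 0 at an unadjusted p under 0.05.
Ghrl, the precursor of the hunger hormone ghrelin, had the smallest p. It stood at 2.40, 2.85, 1.22, 2.83 and 2.40 CPM in dnFGFR SS mice and at 1.31, 1.09, 2.30, 1.04 and 1.99 CPM in dnFGFR OS mice. The groups overlapped through SS mouse 3, and the log2 fold change was -0.60 (SE 0.29, adjusted p = 0.729). 
Penk, which marks striatal neurons of the indirect pathway, was 594, 755, 706, 630 and 782 CPM in dnFGFR SS mice. In dnFGFR OS mice it was 644, 745, 428, 598 and 555 CPM, with the lowest value in the library that also had the lowest striatal marker level. The log2 fold change was -0.22 (SE 0.13, adjusted p = 0.770). It was -0.13 without dnFGFR OS 3, and with the striatal marker level as a covariate it turned to 0.06 (SE 0.11). All 12 striatal markers had a lower mean in dnFGFR OS mice, with a median log2 fold change of -0.20, 3 at an unadjusted p under 0.05 and 0 called by edgeR, DESeq2 or voom. All 8 choroid plexus markers had a higher mean there (median 0.46), with 0 called by edgeR, DESeq2 or voom and 0 at an unadjusted p under 0.05.
Grp, a bombesin-like peptide, differed by 0.39 (SE 0.25, adjusted p = 0.784) and Nts by 0.17 (SE 0.12, adjusted p = 0.811). Grp differed by 0.21 without dnFGFR OS 2, and Nts by 0.04 without dnFGFR OS 1, which had 35.5 CPM against 21.6 to 26.6 CPM in the rest of its group. With the striatal marker level as a covariate, Grp differed by 0.22 and Nts by 0.32.

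**Figure D3:**
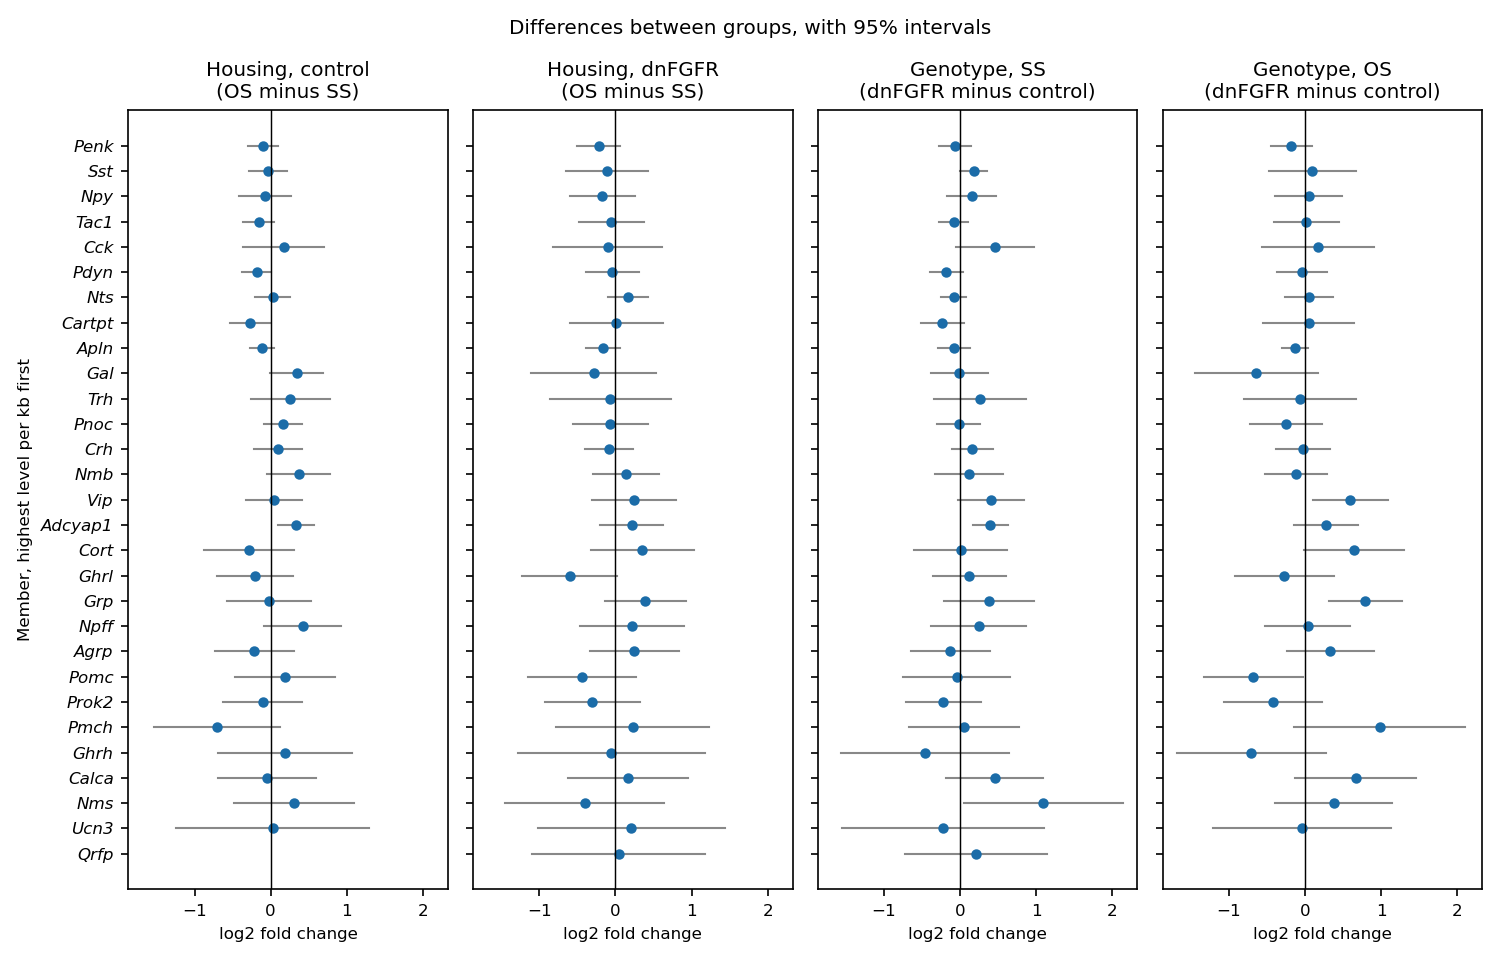
log2 fold change (point) and 95% interval (line) of the tested members in the 4 pairwise comparisons, ordered from the highest level per kilobase at the top; a member without a point was below the filter there. Most points lie near 0 and no member passed the adjusted threshold.

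Between dnFGFR and control males in SS housing, no precursor passed the main test. edgeR called 0 of 29 members and 0.2% of all 16992 genes. With an unadjusted p under 0.05 there were 3 members in edgeR (10.3%, against 8.63% of all genes), 4 in DESeq2 (11.8% against 7.57%) and 4 in voom (13.8% against 9.65%). DESeq2 called 1 member, Adcyap1, of the 30 it adjusted (3.33%), against 223 genes (1.27%), and voom called 0, against 0.241% of all genes. The groups did not overlap for 0 of 29 members and for 1.57% of all genes.
Adcyap1 was 9.97, 7.01, 10.5, 9.28 and 9.87 CPM in dnFGFR SS mice, against 6.54 to 7.56 CPM in control SS mice. All but dnFGFR SS mouse 2 lay above every control. The log2 fold change was 0.40 (SE 0.11, adjusted p = 0.245 in edgeR). It was called with DESeq2 (0.40, adjusted p = 0.0700) and without dnFGFR SS replicate 2 (0.49, adjusted p = 0.0770), and over all alternatives its adjusted p ran from 0.0700 to 0.972.
Nms, the precursor of neuromedin S, differed by 1.09 (SE 0.49, adjusted p = 0.555), at 0.153 to 0.521 CPM in controls and 0.179 to 1.39 CPM in dnFGFR SS mice. Cartpt differed by -0.23 (SE 0.13, adjusted p = 0.657) and Pdyn by -0.18 (SE 0.10, adjusted p = 0.660). With 1 mouse left out, Nms differed by 0.60 (without dnFGFR SS 2), Cartpt by -0.13 (without dnFGFR SS 3) and Pdyn by -0.11 (without control SS 3). Nms differed by 1.67 (SE 0.54, adjusted p = 0.778) with the striatal marker level as a covariate. All 6 cortical markers had a higher mean and all 12 striatal markers a lower mean in dnFGFR SS mice, with median log2 fold changes of 0.52 and -0.18. edgeR called 0 of either list (3 and 6 at an unadjusted p under 0.05), and DESeq2 called the striatal gene Rgs9. All 6 oligodendrocyte markers had a lower mean (median -0.17) and all 5 markers of neurons in general a higher one (median 0.08), with 0 of either called by edgeR and 3 and 1 at an unadjusted p under 0.05. The 2 genotypes were killed on different dates, which leaves genotype and sacrifice date confounded, and the 2 cannot be told apart.

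In OS mice, again, no precursor passed between genotypes. edgeR called 0 of 28 members and 0.0531% of all 16941 genes, and DESeq2 and voom called 0 members, against 0.428% and 0.159% of all genes. Members with an unadjusted p under 0.05 numbered 3 in edgeR (10.7%, against 7.02% of all genes), 4 in DESeq2 (11.8% against 6.79%) and 3 in voom (10.7% against 10.9%). In edgeR, 0 of 30 members and 12 of 17455 genes were called without dnFGFR OS 2, 3 and 5. At an unadjusted p under 0.05 there were 2 members and 912 genes in that fit. Nothing is read from these counts. Intervals lay within a 2-fold change for 17 of 28 members and 88.7% of all genes. The groups did not overlap for 0 of 28 members and for 1.56% of all genes.
Grp came closest, at 1.66, 1.70, 2.19, 1.55 and 1.96 CPM in control OS mice. In dnFGFR OS mice it was 3.12, 4.67, 3.37, 2.53 and 2.08 CPM, above every control in 4 of 5 mice. The log2 fold change was 0.79 (SE 0.22, adjusted p = 0.552).
Vip, made by cortical interneurons and by the suprachiasmatic nucleus, was 8.52, 6.56, 7.54, 6.70 and 8.02 CPM in control OS mice and 5.42, 16.2, 13.4, 12.5 and 9.05 CPM in dnFGFR OS mice. Its values were higher in 4 of 5 dnFGFR mice than in any control, and the log2 fold change was 0.60 (SE 0.23, adjusted p = 0.655). It was 0.26 without dnFGFR OS 2, 3 and 5, and 0.37 with the striatal marker level as a covariate.
Gal was 6.72, 10.7, 7.37, 8.50 and 6.26 CPM in control OS mice and 8.13, 1.58, 6.94, 6.55 and 2.17 CPM in dnFGFR OS mice. Mice dnFGFR OS 2 and 5 set the lower mean, and the log2 fold change was -0.64 (SE 0.37, adjusted p = 0.770). It was -0.41 without dnFGFR OS 2 and -0.11 without dnFGFR OS 2, 3 and 5. Pomc, the precursor of beta-endorphin and melanocortins, differed by -0.68 (SE 0.30, adjusted p = 0.699). All 12 striatal markers had a lower mean in dnFGFR OS mice (median -0.27, 0 called by edgeR with 9 at an unadjusted p under 0.05, and 1, Syndig1l, called by DESeq2 and by voom), and 5 of 6 cortical markers a higher one (median 0.55). All 8 choroid plexus markers (median -0.90) and all 6 oligodendrocyte markers (median -0.14) had a lower mean. Of these 3 lists edgeR, DESeq2 and voom called 0 genes, with 1, 0 and 2 at an unadjusted p under 0.05 in edgeR.

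No precursor passed the test of whether the effect of housing differed between genotypes. The interaction test called 0 of 30 members and 0 of 17445 genes (0%), with 0 members and 595 genes (3.41%) at an unadjusted p under 0.05. DESeq2 called 0 members and 1 gene (0.00451%), and voom called 0 and 0. Each had 0 members at an unadjusted p under 0.05, against 3.3% and 8.61% of all genes. The counts in edgeR were 0 members and 0 genes without dnFGFR OS 2, 3 and 5.
The smallest p-values belonged to Cort (0.64, SE 0.43), Pmch (0.93, SE 0.63), Gal (-0.63, SE 0.44) and Pomc (-0.62, SE 0.46), all with an adjusted p of 0.963. Each shrank by over 1.5 times without 1 mouse. Cort was 0.33 without dnFGFR OS 2 and 0.38 without control SS 1, Pmch was 0.47 without dnFGFR OS 5, Gal was -0.39 without dnFGFR OS 2 and Pomc was -0.41 without dnFGFR SS 3. The intervals were wide: for 15 of the 30 members they lay within a 2-fold difference, against 81.0% of all genes.

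In edgeR, genes that process, store and receive these peptides did not pass either. Of 18 genes for processing and granule release, edgeR called 0 in each of the 5 comparisons, with 1 to 4 at an unadjusted p under 0.05. DESeq2 called 1 between genotypes in SS mice, Cadps2, and 1 in OS mice, Pcsk5, with 1 to 4 at an unadjusted p under 0.05 in each comparison, and voom called 0 of them, with 2 to 6. Of all genes DESeq2 called 1.27% in SS and 0.428% in OS mice. Those at an unadjusted p under 0.05 made up 3.41% to 8.63% of all genes in edgeR, 3.3% to 7.57% in DESeq2 and 8.61% to 13.4% in voom over the 5 comparisons. Pcsk5, a prohormone convertase, had the smallest p among higher genes between genotypes in OS mice (0.57, SE 0.15, adjusted p = 0.496) and in the interaction (0.48), and among lower genes with housing in control mice (-0.22). Cpe, the carboxypeptidase, differed by 0.12 with housing in control mice. Pcsk1, a convertase, differed by 0.26 with housing in dnFGFR mice, where Ecel1, an endothelin-converting-enzyme-like protease, differed by -0.32. Ecel1 differed by -0.37 between genotypes in OS mice. Cadps2, which primes dense-core granules, differed by 0.29 between genotypes in SS mice, Cpd, another carboxypeptidase, by -0.12, and Furin, a convertase, by -0.18 in the interaction. Adjusted p-values ran from 0.270 upward for these genes.
Of the 48 receptor genes, 43 to 45 were tested and edgeR called 0, with 0 to 6 at an unadjusted p under 0.05. DESeq2 and voom each called 1 of them, Trhr, between genotypes in OS mice, with 0 to 5 and 1 to 7 at an unadjusted p under 0.05. In that comparison DESeq2 called 0.428% and voom 0.159% of all genes, and 6.79% and 10.9% had an unadjusted p under 0.05. Trhr, the receptor of TRH, had the smallest p among higher genes between genotypes, at 0.41 in SS mice (SE 0.12, adjusted p = 0.308) and 0.77 in OS mice (SE 0.18, adjusted p = 0.372). Crhr2, a receptor for CRH-family peptides, differed by 0.46 with housing in control mice (SE 0.17, adjusted p = 0.530), by -0.40 between genotypes in OS mice and by -0.44 in the interaction. With housing, Npy5r, a neuropeptide Y receptor, differed by -0.21 in control mice, and Prokr2, a prokineticin receptor, and Sstr4, a somatostatin receptor, by 0.41 and -0.33 in dnFGFR mice. Npffr1, a receptor for RFamide peptides, differed by -0.21 between genotypes in SS mice and Qrfpr by 0.51 in the interaction.

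The levels of some precursors moved with marker lists of brain regions and cell types. For this, each gene's log2 level was fitted on the mean log2 CPM of a marker list with the 4 groups as a term, so the slope is the change in log2 level per unit of list level within groups. Genes of the list were left out. Points share a library, so depth and composition enter both axes.

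Trh and Gal moved with the markers of the preoptic area and anterior hypothalamus. Trh drives the thyroid axis, and Gal is made by preoptic neurons of sleep and parenting. Trh had a slope of 1.93 (SE 0.20, adjusted p = 4.89e-05) and Gal of 1.79 (SE 0.21, adjusted p = 0.000151). In all, 6 of 30 members were called, against 4.27% of all genes.
Trh stood at 6.33, 7.80, 6.62, 16.5 and 6.08 CPM in control SS mice, at 10.2, 13.3, 11.1, 9.44 and 7.99 in control OS mice, at 10.4, 8.26, 15.9, 6.23 and 11.5 in dnFGFR SS mice, and at 10.6, 3.33, 16.1, 14.6 and 5.38 in dnFGFR OS mice. The lowest value belonged to dnFGFR OS 2, which also had the lowest preoptic marker level. For group-centred levels over the 20 mice, Pearson's r was 0.93 and Spearman's rho 0.93 for Trh, and 0.92 and 0.93 for Gal. The permutation p-values of r were 1e-05, the smallest that 100000 permutations can give, and 7e-05, and 0.0018 and 0.0036 after adjustment over the 180 relations of 30 members and 6 lists. Without the 2 mice farthest from the median marker level, r was 0.88 for both genes. It was 0.87 in control and 0.95 in dnFGFR mice for Trh, and 0.80 and 0.94 for Gal. Both calls held with each mouse left out.
Pdyn (-0.55), Tac1 (-0.65), Cort (-1.12) and Cartpt (-0.81) had slopes in the other direction. With each mouse left out, between 311 and 3460 of all genes were called on this list, against 744 with all 20 mice. Without dnFGFR OS 3 the count of called members was 2, and without dnFGFR OS 5 it was 10. Without dnFGFR OS 2, 3 and 5 it was 3, with Trh (2.02, adjusted p = 0.0111) and Gal (1.40, adjusted p = 0.0116) called and none of the 4 genes with negative slopes. In that fit 654 of 17929 genes were called. The slope was -0.34 for Cartpt and -0.41 for Tac1 without dnFGFR OS 2, neither called. Without the 2 mice of extreme marker level, r went from -0.59 to -0.08 for Cartpt, from -0.69 to -0.21 for Tac1, from -0.70 to -0.36 for Pdyn and from -0.73 to -0.48 for Cort.

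Cck, Vip and Cort moved with the markers of cortical pyramidal neurons. These 3 precursors are expressed in cortical interneurons, and Cck also in pyramidal cells. Cck had a slope of 0.99 (SE 0.14, adjusted p = 0.000442), Vip of 0.67 (SE 0.13, adjusted p = 0.00825) and Cort of 0.66 (SE 0.19, adjusted p = 0.0904). Thus 3 of 30 members were called, against 2.41% of all genes.
Cck stood at 76.4, 36.8, 35.6, 24.5 and 51.4 CPM in control SS mice, at 53.6, 42.6, 34.6, 47.4 and 75.2 in control OS mice, at 53.0, 42.1, 77.5, 71.6 and 63.6 in dnFGFR SS mice, and at 29.7, 115, 49.0, 65.6 and 27.0 in dnFGFR OS mice. The highest value came from dnFGFR OS 2, which had the highest cortical marker level. Pearson's r was 0.83 for Cck (Spearman's rho 0.82, adjusted permutation p = 0.00468 and 0.00585) and 0.79 for Vip (rho 0.74, adjusted permutation p = 0.00514 and 0.0238). Without the 2 farthest mice r was 0.83 and 0.77, and in control and dnFGFR mice alone it was 0.93 and 0.78 for Cck and 0.80 and 0.88 for Vip. In the other direction, Gal had an r of -0.59 (rho -0.68) and Trh of -0.58 (rho -0.64). Their adjusted permutation p-values were 0.0371 and 0.0920 for r, and 0.0298 and 0.0524 for rho. Their slopes, -0.63 and -0.69, were not called by edgeR (adjusted p = 0.167 and 0.182). Over the 6 lists, 21 of 180 relations had adjusted permutation p-values under 0.1 for both r and rho. The permutation test was run on members only, so nothing about precursors as a set is read from this count. The calls of Cck and Vip held with each mouse left out, while that of Cort was lost in 14 of 20 such fits. With each mouse left out, between 195 and 610 of all genes were called on the cortical list, against 421 with all 20 mice. Without dnFGFR OS 4 and without dnFGFR OS 5 the count of called members was 5 each. Without dnFGFR OS 2, 3 and 5 it was 3, with Cck (0.90, adjusted p = 9.7e-06) and Vip (0.64, adjusted p = 0.00671) called and Cort not (adjusted p = 0.234). In that fit 439 of 17934 genes were called.

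Penk moved with the striatal markers. It was the only member called on that list, with a slope of 1.44 (SE 0.22, adjusted p = 0.0432), against 0.0172% of all genes. The highest Penk level, 917 CPM, was in the mouse with the highest striatal marker level, and the lowest, 428 CPM, in the mouse with the lowest. Pearson's r was 0.86 and rho 0.78 (adjusted permutation p = 0.0036 and 0.00792), and r was 0.76 without the 2 farthest mice, 0.89 in control and 0.85 in dnFGFR mice. The slope lay between 1.30 and 1.55 with each mouse left out, but 12 of the 20 fits no longer called it: those without control SS 1, 2, 3 or 5, control OS 1, 2, 3 or 4, dnFGFR SS 1, 2 or 5, or dnFGFR OS 3. It was also not called with the replicate number as a block (slope 1.504, adjusted p = 0.9997) or with the first 6 genes of the list (1.15, adjusted p = 0.206). Without dnFGFR OS 2, 3 and 5 it was 1.43 (adjusted p = 0.144), and 0 members and 1 of 17928 genes were called.
Tac1 (1.49, SE 0.46, adjusted p = 0.926) and Nts (0.87, SE 0.34, adjusted p = 0.936) followed among positive slopes. In the other direction the smallest p-values belonged to Grp (-1.504, adjusted p = 0.936) and Adcyap1 (-0.84, adjusted p = 0.936), and the slope of Adcyap1 was 0.30 without dnFGFR OS 3. Without that mouse the slope of Tac1 was 0.61 and that of Grp -2.72, and r of Tac1 went from 0.61 to 0.28 without the 2 farthest mice. Pdyn was not called on the striatal list either (0.90, SE 0.43, adjusted p = 0.936), and its r went from 0.46 to 0.09 without those mice.

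**Figure D4:**
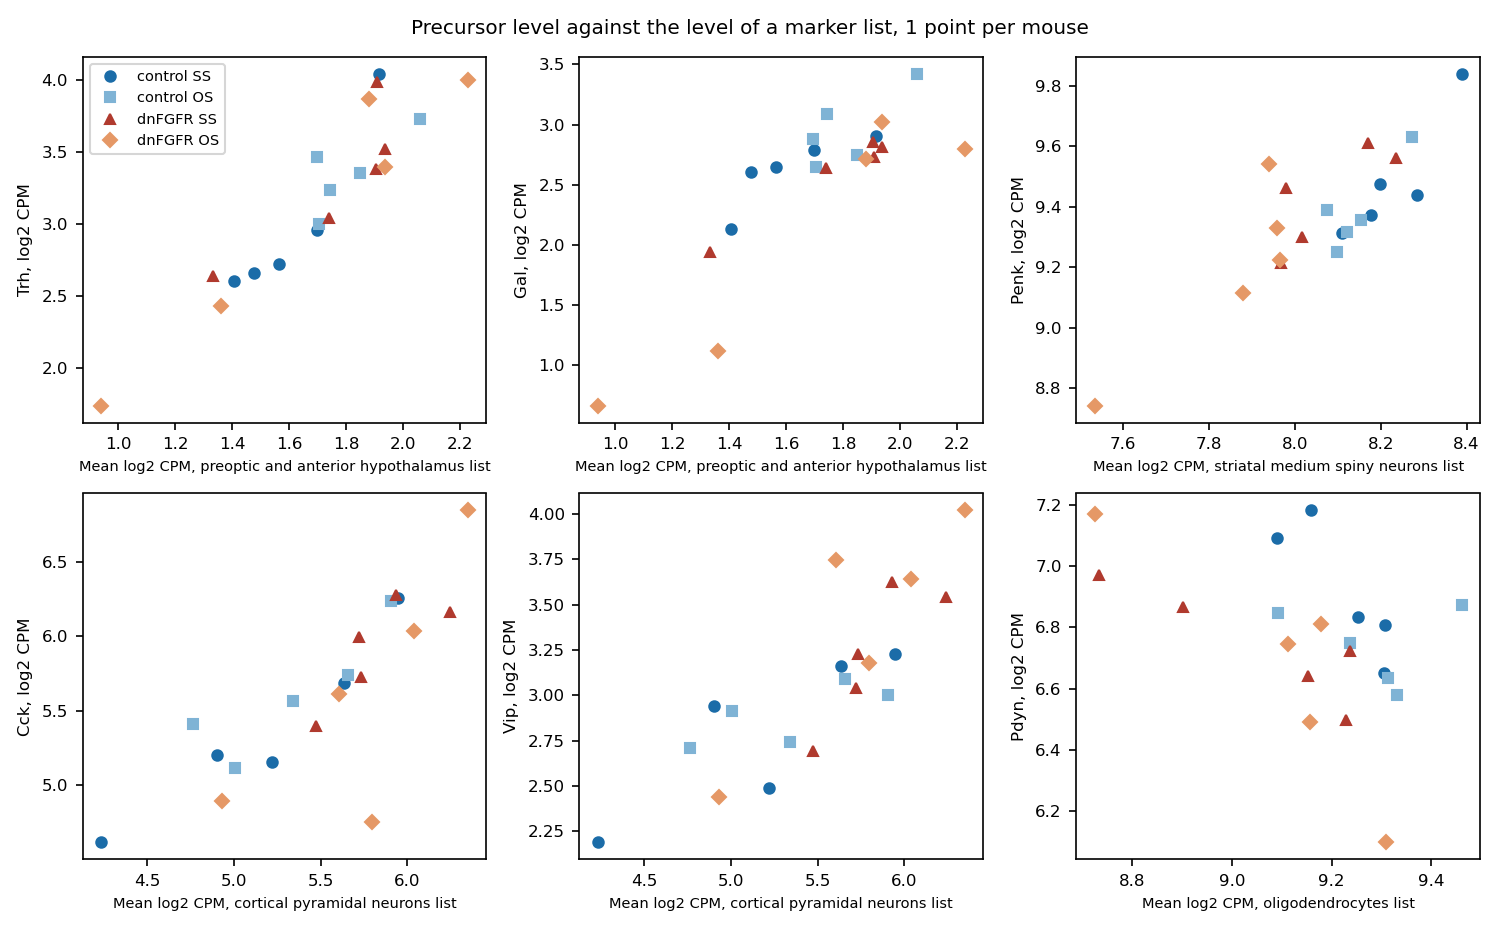
log2 CPM of a precursor (vertical axis) against the mean log2 CPM of a marker list (horizontal axis) in each mouse, marked by group. Trh and Gal rise with the preoptic list (slopes 1.93 and 1.79), Penk with the striatal list (1.44), Cck and Vip with the cortical list (0.99 and 0.67), and Pdyn runs against the oligodendrocyte list (-1.03).

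The remaining lists gave further calls. On the oligodendrocyte list 8 of 30 members were called, against 7% of all genes: Trh (2.72), Gal (2.09), Ucn3 (4.86) and Apln (0.56) with positive slopes and Pdyn (-1.03), Cort (-2.01), Cartpt (-1.53) and Tac1 (-1.06) with negative ones. The calls of Trh and Pdyn held with each mouse left out. Without dnFGFR OS 2, 3 members were called, 5 without dnFGFR SS 4 and 4 without dnFGFR OS 2, 3 and 5. Of all genes, 783 to 1771 were called with each mouse left out, against 1220 with all 20 mice. Without dnFGFR OS 2, 3 and 5 the count was 1141 of 17934. Gal had a slope of 1.38, Cartpt of -0.89 and Tac1 of -0.64 without dnFGFR OS 2, none of them called. On the list of neurons in general 7 members were called, against 8.94% of all genes. Cck, Cort, Npy, Vip, Sst and Cartpt had positive slopes there and Ucn3, a CRH-family peptide, a negative one. On this list 1 member was called without dnFGFR OS 2, 4 without control OS 5 and 4 without dnFGFR OS 2, 3 and 5. Of all genes, 221 to 1605 were called with each mouse left out, against 1560 with all 20 mice. Without dnFGFR OS 2, 3 and 5 the count was 556 of 17935. The slopes of Sst (2.40) and Cartpt (2.43) were 1.39 and 1.24 without dnFGFR OS 2, neither called. On the choroid plexus list 4 members were called (Trh, Ucn3, Cartpt and Pdyn), against 2.45% of all genes, and 0 of 30 without control SS 4, dnFGFR SS 3, dnFGFR SS 4, dnFGFR OS 2 or dnFGFR OS 3. The count was 2 without control SS 2, control SS 3, control OS 1 or dnFGFR SS 1, and 2 without dnFGFR OS 2, 3 and 5 together. Of all genes, 188 to 604 were called on the choroid plexus list with each mouse left out, against 427 with all 20 mice. Without dnFGFR OS 2, 3 and 5 the count was 280 of 17932. The lists themselves moved together: r between the preoptic and oligodendrocyte levels was 0.77, and between the preoptic and cortical levels -0.61, over the 20 group-centred mice. It was highest, at 0.83, between the cortical level and that of neurons in general. The oligodendrocyte level had an r of 0.73 with the choroid plexus level and -0.71 with that of neurons in general. The striatal level had an r between -0.19 and 0.09 with the other lists. Which list a precursor follows was not tested apart from the others.

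**Figure D5:**
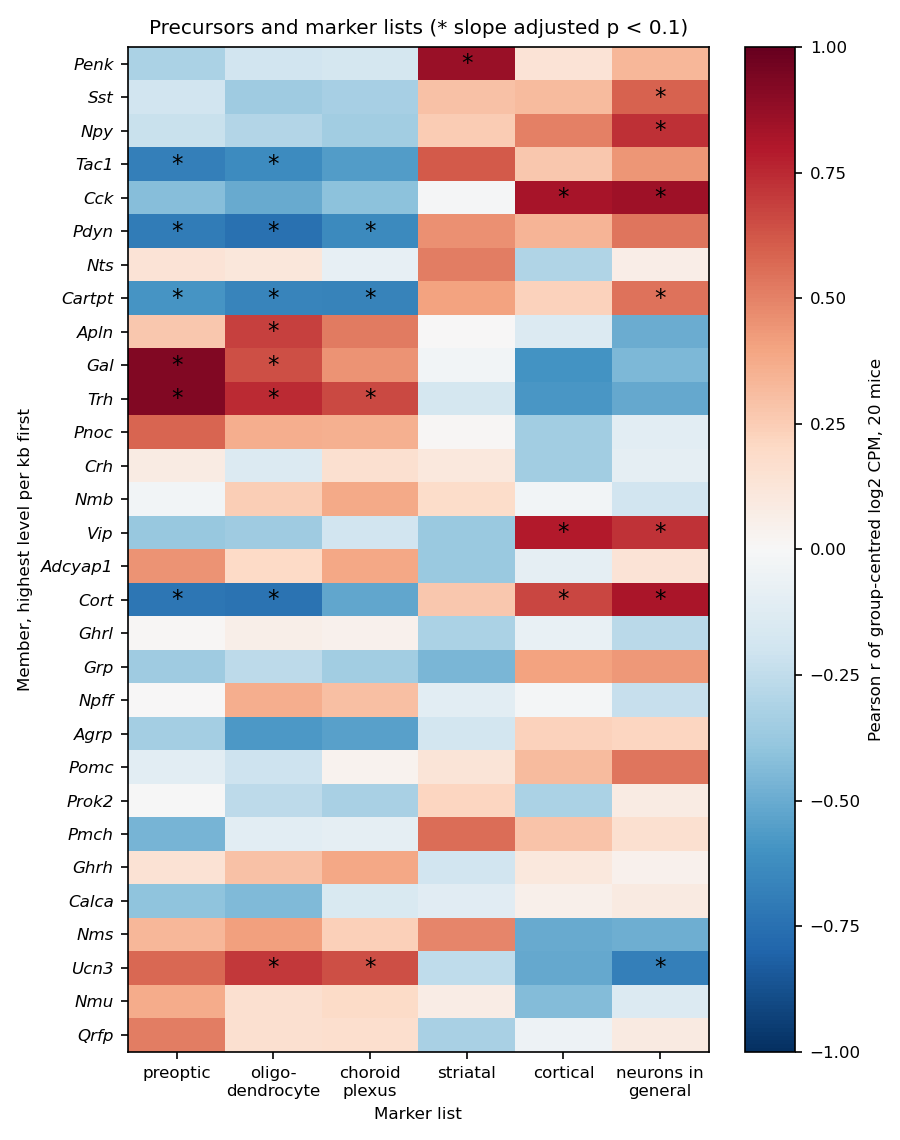
Pearson's r of group-centred log2 CPM between each tested member (rows, highest level per kilobase first) and each marker list (columns) over 20 mice; stars mark slopes with an adjusted p under 0.1 in edgeR. The highest values belong to Trh (0.93) and Gal (0.92) on the preoptic list.

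Some pairs of precursors moved together, as did some pairs of all genes. Whether precursor pairs did so more often was not tested. Among the 21 members with a mean of at least 1 CPM, 12 of 210 pairs passed an adjusted p of 0.1 in a permutation test for both Pearson's r and Spearman's rho over the 20 mice, 9 of them positive and 3 negative. All 12 had the same sign in control and in dnFGFR mice. Each had an r of at least 0.60 and a rho of at least 0.64 in size. Of the 210 pairs of members, 16 (7.62%) reached both sizes, against 4.73% of all pairs of the 15288 genes with a mean of at least 1 CPM. Over the 17 mice without dnFGFR OS 2, 3 and 5 these were 13 pairs of members (6.19%) and 4.01% of all pairs. There, all 12 called pairs kept their sign and 9 of them reached both sizes.
The closest pairs were Tac1 with Pdyn (r = 0.94, rho = 0.92) and Sst with Npy (r = 0.88, rho = 0.91), which many cortical and striatal interneurons make together. Gal with Trh (r = 0.84, rho = 0.86) and Vip with Cck (r = 0.81, rho = 0.86) came next. Adjusted permutation p-values of r were 0.00315, 0.00315, 0.0168 and 0.0226, and of rho 0.00210, 0.00210, 0.00672 and 0.00490, in this order. Without dnFGFR OS 2, r was 0.91, 0.85, 0.77 and 0.78, and without the 2 mice farthest from the median of the first gene it was 0.85, 0.80, 0.74 and 0.78. Over the 17 mice it was 0.86, 0.80, 0.64 and 0.84. The other 5 positive pairs were Npy with Cck, Npy with Pomc, Cartpt with Pdyn, Sst with Cck and Tac1 with Cartpt. Without the 2 farthest mice, r went from 0.79 to 0.48 for Tac1 with Cartpt, from 0.79 to 0.54 for Cartpt with Pdyn, from 0.75 to 0.56 for Sst with Cck, from 0.81 to 0.68 for Npy with Cck and from 0.73 to 0.62 for Npy with Pomc. The 3 negative pairs were Apln with Cartpt (r = -0.60), Apln with Pdyn (r = -0.67) and Ghrl with Sst (r = -0.62), at -0.60, -0.74 and -0.70 without the 2 farthest mice.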

How the data were processed

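Libraries of total RNA from the POA were aligned to GRCm38 with HISAT2 and counted per RefSeq gene with Rsubread by the authors, who deposited whole-number counts per gene without normalization; strand and multi-mapping options are not given in the sources used here. Another 20 sample columns of the table carry names outside the labels and were not used. The study dropped outlying samples found by robust principal component analysis; the sources used here do not name them, and all 20 labelled mice were kept. Precursors, marker lists and tests were chosen with earlier results of these data known.

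Counts were tested with edgeR 4.0.16 (TMM scaling, low-count filter by group, quasi-likelihood test; R 4.3.3) in 5 comparisons, with Benjamini-Hochberg adjustment over all genes tested and a threshold of 0.1. Differences run OS minus SS and dnFGFR minus control. CPM used TMM-scaled library sizes, and RPKM used merged GENCODE M21 exon lengths. A marker list's level was the mean log2 CPM (prior count 2) of its genes, and slopes were fitted over all 20 mice; correlations used group-centred values and 100000 permutations within groups. Slopes on the 5 lists other than the striatal one, the pairs of precursors and the fits without dnFGFR OS 2, 3 and 5 were added after seeing the data. Genes were named by rule: members past the threshold and the 2 smallest p-values in each direction of a comparison, and the smallest in each direction for the processing and receptor lists. Upstream sequences for 4 genes were chosen after their values were seen. DESeq2 made a further call on the marker lists between genotypes in SS mice that is not reported here. Alternatives were RLE scaling, DESeq2 1.42.0, limma 3.58.1 voom with quality weights, no filter, a threshold of 0.05, a replicate block, the striatal level as a covariate, all 4 groups in 1 fit, sacrifice dates, and each mouse left out. P-values set a difference or a relation against the spread between these mice. Chi-square values between replicates were above sampling noise for all 40 pairs of mice.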

Additional observations from a re-analysis of the deposited data

Results flagged for a closer look

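Of 156 groups of 5 mice tested for a single mouse far from the rest, 7 had one (4.49%; chance flags about 1 in 20 groups). Values are log2 CPM. Mouse 4 of control SS stood below the others for Cartpt, at 4.04 against 4.32 to 4.44, and above them for Trh, at 4.05 against 2.62 to 2.97. Mouse 4 of dnFGFR SS stood below the others for Gal, at 1.97 against 2.66 to 2.86, and mouse 3 of that group for Ghrl, at 0.35 against 1.30 to 1.54. Mouse 5 of dnFGFR OS was lowest for Pnoc, at 2.20 against 3.36 to 3.67. Among marker lists, the mean striatal level of dnFGFR OS mouse 3 was 7.53 against 7.88 to 7.97 in its group. The mean choroid plexus level of control OS mouse 5 was 1.99 against 4.92 to 5.73.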

How the results depend on the processing

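The count of precursors called in the 2 housing comparisons, between genotypes in OS mice and in the interaction was 0 under every alternative run. Between genotypes in SS mice it was 1 with DESeq2 and 0 to 1 with each mouse left out; that gene was Adcyap1. The fold change of Penk with housing in dnFGFR mice reversed to 0.055 with the striatal level as a covariate, and the slope of Adcyap1 on the striatal level ranged from -1.02 to 0.30 with each mouse left out, reversed only without dnFGFR OS replicate 3; the cause was not tested. With each mouse left out, calls of members on the slopes ranged from 0 to 1 (striatal), 2 to 10 (preoptic), 2 to 5 (cortical), 3 to 10 (oligodendrocytes), 0 to 5 (choroid plexus) and 1 to 9 (neurons in general). Calls among all genes ranged, in this order, from 0 to 12, 311 to 3460, 195 to 610, 783 to 1771, 188 to 604 and 221 to 1605. The striatal slope had 0 called with the first 6 genes of the list. Without dnFGFR OS 2, 3 and 5, a choice made after seeing the data, calls on the slopes were 0 (striatal), 3 (preoptic), 3 (cortical), 4 (oligodendrocytes), 2 (choroid plexus) and 4 (neurons in general). Among all genes they were, in this order, 1 of 17928, 654 of 17929, 439 of 17934, 1141 of 17934, 280 of 17932 and 556 of 17935. At a threshold of 0.05, 0 members were called on the choroid plexus list and 4 on the list of neurons in general.

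Same-numbered mice of different groups were checked for deviating together. Of 5 pairs in each comparison, 2, 1, 0 and 1 correlated above 0.1, with r from -0.23 to 0.26. Differently numbered mice were not compared, so this check cannot decide whether the numbers pair the mice. With the replicate number as a block, calls on the striatal and choroid plexus lists were 0 and 0, and no other count of precursors called moved by over 1.5 times.

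Depth limits the lowest precursors, since Npvf, Hcrt, Rln3 and Calcb had 9 to 83 reads over 20 mice and were not tested in the main fits.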
